A study of Mus musculus with 21 samples.

Results

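The 49 genes of DNA replication and S phase described here were taken by symbol from a count table of 21000 genes, which was measured by RNA sequencing in hematopoietic stem cells (HSCs) of mouse bone marrow. All 49 were found in the table, and all 49 had enough reads to be tested in each of the 9 comparisons below. By role, 12 of them license replication origins, 6 activate the replicative helicase, 9 encode subunits of DNA polymerases or primase, and 7 encode the sliding clamp and its loaders. A further 5 bind single-stranded DNA or join Okazaki fragments, 3 serve the checkpoint at the replication fork, 4 control the passage from G1 to S phase, and 3 supply new DNA with histones.

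The 21 libraries formed 7 groups of 3, and the 3 libraries of a group came from independent experiments. All mice were wild type. Mice aged 10 weeks received 5-fluorouracil (5-FU), a pyrimidine analog that is toxic to dividing cells, by the intraperitoneal route at 150 mg/kg, or phosphate-buffered saline (PBS). Counting the day of administration as day 1, HSCs were isolated at day 6 after PBS once, 5-FU once, PBS 3 times or 5-FU 3 times, with 21 days between administrations. HSCs were also isolated at day 21 after 5-FU once and after 5-FU 3 times, a day at which no PBS group was isolated. The last group consisted of untreated mice 2 years of age. The libraries of PBS- and 5-FU-treated mice were made from 3000 to 3500 HSCs each. HSCs were sorted from the lineage-negative, Sca-1+ and c-Kit+ (LSK) marrow fraction as cells with CD150 and without CD48 and Flt3. At day 6 after 5-FU the gate was widened to cells with dim c-Kit and the Mac-1 antibody was left out of the lineage cocktail, so that gate and treatment cannot be told apart in the comparisons with PBS at day 6, nor gate and day in those of day 21 with day 6.

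Replication starts with licensing, in which the origin recognition complex, CDC6 and CDT1 load the MCM2 to MCM7 helicase onto DNA in G1 phase, while geminin holds CDT1 back later in the cycle. At the start of S phase, cyclin E and its kinase help to switch the helicase on, and CDC45, the GINS complex and MCM10 join it. DNA polymerases alpha, delta and epsilon then copy the strands, the latter pair held to DNA by the PCNA clamp that replication factor C loads, and TIMELESS, TIPIN and claspin keep helicase and polymerase together and pass a signal to the kinase CHK1 when a fork stalls. Many of the genes are known targets of E2F transcription factors, and most HSCs of an adult mouse are quiescent and hold little of this machinery. Because each library is a bulk sample, a larger share of cells in S phase and more RNA per cell cannot be told apart.

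The libraries held between 22184885 and 38649033 counted reads (median 26962256), and 3 counts, taken as the floor of a library, corresponded to a normalized CPM, which is the count scaled to a common library size, of 0.0850 to 0.128, a limit that covers counting error only. Of 12 HSC marker genes none was at 0 in any group, and their summed level was 4608 to 5085 CPM after PBS once, 3673 to 3825 CPM at day 6 after 5-FU once, 4458 to 4806 CPM after PBS 3 times and 3395 to 3527 CPM at day 6 after 5-FU 3 times. Kit, which encodes the c-Kit used in the gate, fell by 0.86 on the log2 scale after 5-FU once (edgeR adjusted p = 0.00111) and by 0.44 after 5-FU 3 times (edgeR adjusted p = 0.00701). The summed level of 15 myeloid markers was lower at day 6 after 5-FU once (61.6 to 75.9 CPM) than after PBS once (104 to 156 CPM), and it was 54.4 to 77.9 CPM after 5-FU 3 times against 93.1 to 127 CPM after PBS 3 times, with Ly6g at 0 in both 5-FU groups. Summed lymphoid markers did not exceed 9.72 CPM in any library, with Pax5 and Rag1 at 0 in all libraries of the PBS and 5-FU groups. Summed erythroid markers were 1404 to 1447 CPM after PBS once and 1153 to 1202 CPM at day 6 after 5-FU once, summed megakaryocyte markers 165 to 202 and 107 to 113 CPM, summed multipotent progenitor markers 324 to 391 and 219 to 231 CPM, and summed stroma and endothelium markers 148 to 272 and 130 to 156 CPM. After PBS 3 times and 5-FU 3 times the erythroid sums were 1313 to 1553 and 1114 to 1158 CPM, the megakaryocyte sums 177 to 185 and 151 to 160 CPM, the progenitor sums 422 to 465 and 260.0 to 321 CPM, and the stroma and endothelium sums 171 to 184 and 166 to 253 CPM. Car2 made up most of the erythroid sums, and the beta globin genes Hbb-bt and Hbb-bs went the other way. Hbb-bt averaged 7.45 CPM after PBS once and 48.6 CPM at day 6 after 5-FU once (edgeR adjusted p = 0.000321). After PBS and 5-FU 3 times it averaged 8.17 and 22.6 CPM (adjusted p = 0.00248), and Hbb-bs rose in both comparisons as well. The alpha globin gene Hba-a1 did not rise, at 1.68 and 1.52 CPM after PBS and 5-FU once, and 1.33 and 0.244 CPM after 3 administrations. Hba-a2 averaged 1.60 and 1.54 CPM, and 1.35 and 0.233 CPM. Cd34 made up most of the progenitor sums, and Cd48, whose absence was part of the gate, went the other way. Cd48 averaged 4.29 CPM after PBS once and 7.61 CPM at day 6 after 5-FU once. After PBS and 5-FU 3 times it averaged 3.04 and 11.5 CPM. In each comparison Cd48 was called higher and 2 of the 4 progenitor genes lower. Vwf averaged 58.2 CPM after PBS once and 70.2 CPM after 5-FU once and was not called, while 4 megakaryocyte genes were called lower. The part of these differences in the results below was not tested.

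At day 6 after 5-FU, most of the replication genes rose and none fell. After 1 administration, 32 of the 49 genes were higher after 5-FU than after PBS and 0 were lower at an adjusted p under 0.05 (edgeR quasi-likelihood F test with Benjamini-Hochberg adjustment over all genes tested), where 11.5% of all genes tested were higher and 10.6% lower. For lower calls, 0 members passed in DESeq2 as well, and the 1 member with a negative difference, Rfc2, had a log2 fold change of -0.07. After 3 administrations, 34 were higher and 0 lower, against 9.84% higher and 8.3% lower of all genes tested. The median log2 fold change of the 49 genes was 0.39 after 1 administration and 0.61 after 3, and that of all genes tested was 0.00 and -0.01. The 3 5-FU libraries lay above the 3 PBS libraries, without overlap, for 44 of the 49 genes after 1 administration and for 44 after 3, as they did for 23.3% and 20.8% of all genes tested.

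The calls of both day 6 comparisons included 28 genes, 4 were called after 1 administration and not after 3 (Orc1, Rfc1, Rfc5 and E2f2), 6 were called after 3 and not after 1 (Mcm3, Pola1, Prim2, Pold1, Rpa1 and E2f1), and 11 were called in neither (Orc2, Gins3, Gins4, Pold3, Pole2, Pcna, Rfc2, Rfc3, Rpa2, Rpa3 and Chaf1b). No library was shared between the day 6 comparisons. A gene called in one and not in the other is not thereby shown to differ between them, and the test of that difference is given further on. Of the 32 calls after 1 administration 20 passed under every alternative, and the other 12 (Orc1, Gmnn, Cdc45, Prim1, Pole, Rfc1, Rfc4, Rfc5, Timeless, E2f2, Chaf1a and Slbp) were lost in at least 1, each of them on leaving out a library. Their highest adjusted p ranged from 0.0614 for Slbp to 0.173 for Orc1. Of the 34 calls after 3 administrations 22 passed under every alternative, and Orc6, Gmnn, Mcm3, Mcm4, Mcm10, Pola1, Prim1, Prim2, Pold1, Pole, Rfc4 and Dscc1 did not, with a highest adjusted p from 0.0545 for Mcm4 to 0.214 for Mcm3. Between 22 and 26 members were called with 1 library left out after 1 administration, the fewest without 5-FU replicate 2 or PBS replicate 2, and between 23 and 27 after 3, the fewest without 5-FU replicate 3. With 3 libraries against 3, an exact permutation test of a single gene cannot give a two-sided p under 0.1.

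**Figure D1:**
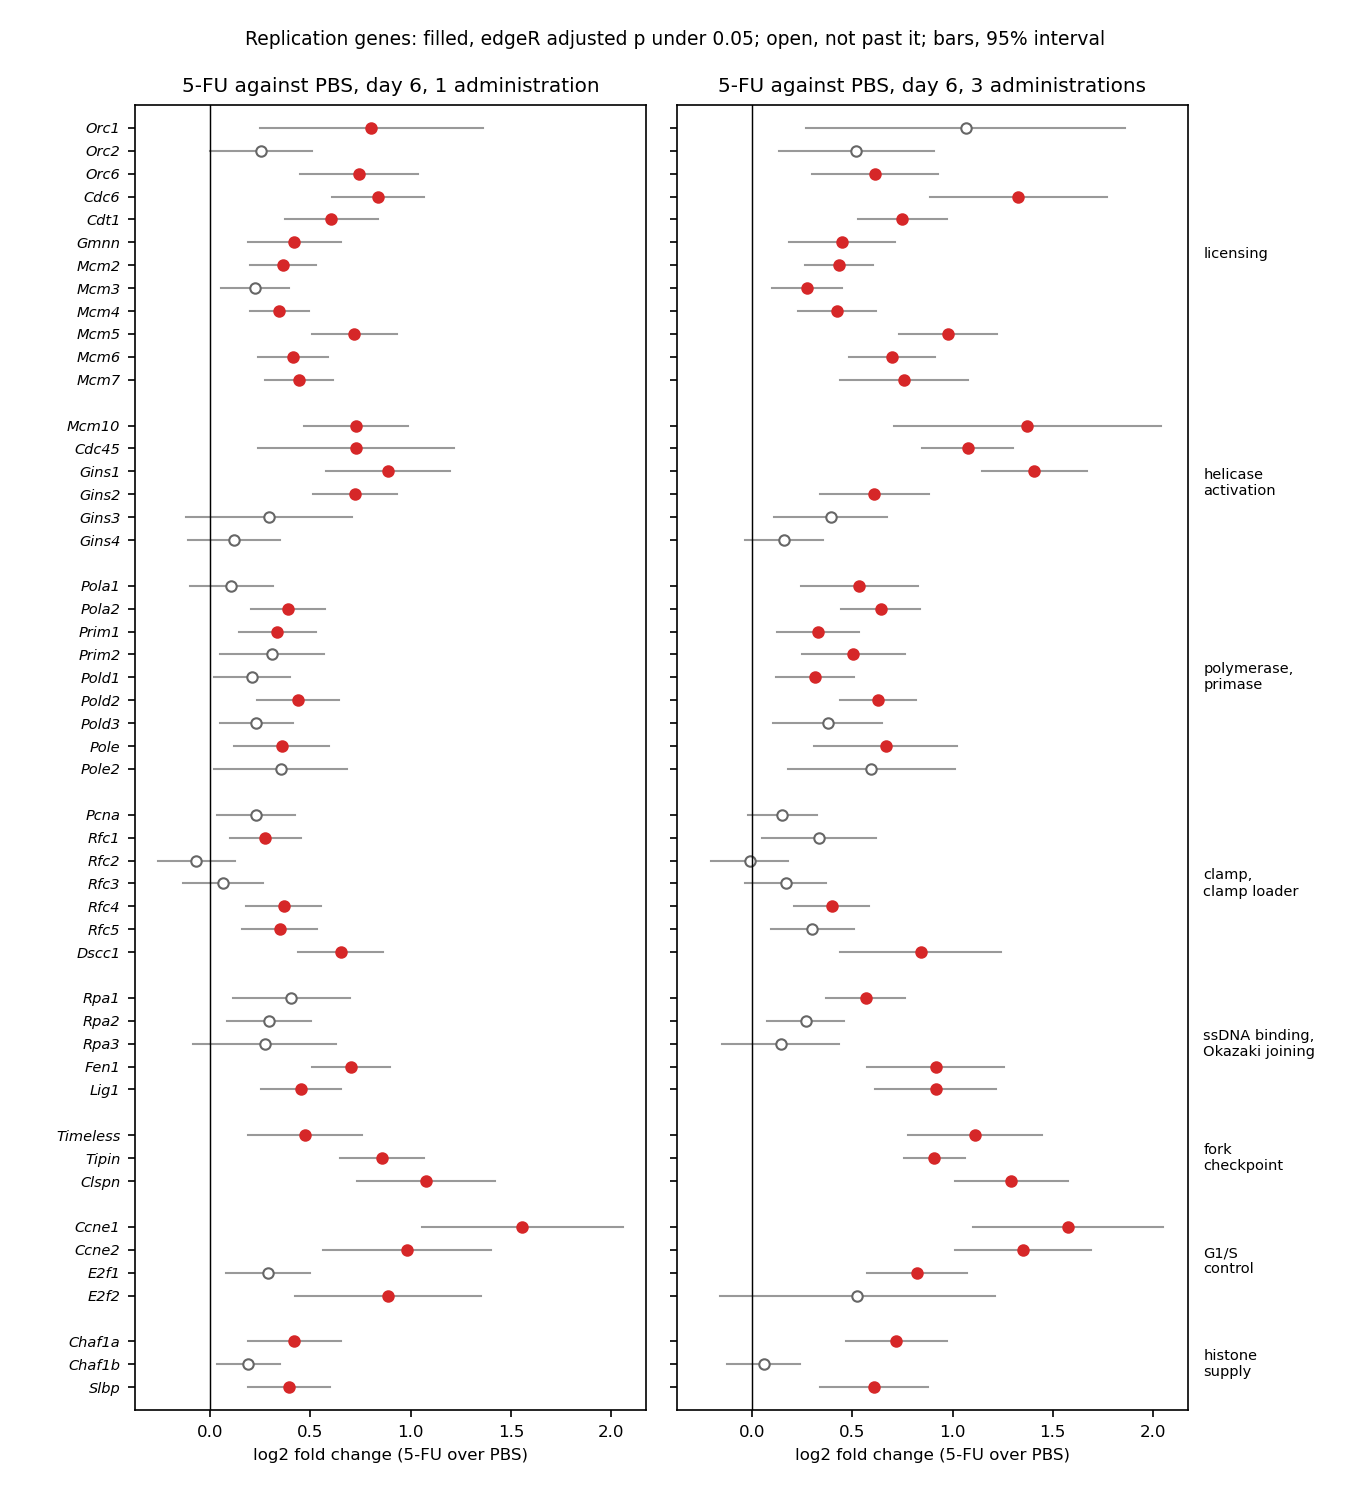
Difference between 5-FU and PBS at day 6 for each of the 49 replication genes, ordered by role. The horizontal axis is the log2 fold change (5-FU over PBS) after 1 administration (left) and 3 administrations (right), bars are 95% intervals from the edgeR fit, and filled points passed an adjusted p of 0.05. The filled points, 32 on the left and 34 on the right, all lie above 0, with Ccne1 farthest out at 1.56 and 1.58.

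Among the licensing genes, 10 of 12 rose after 5-FU once and 10 of 12 rose after 5-FU 3 times, with median log2 fold changes of 0.43 and 0.66. Cdc6, the loading factor that is made anew in each cell cycle, had the largest difference of the role after 5-FU once. It stood at 91.9, 106 and 88.5 CPM in the libraries of PBS once and at 159, 188 and 168 CPM in those of 5-FU once, and at 97.9, 68.8 and 64.8 CPM after PBS 3 times against 196, 166 and 228 CPM after 5-FU 3 times. Every 5-FU library was above every PBS library of the same number of administrations, and the log2 fold changes were 0.84 ± 0.10 (SE, adjusted p = 0.00270) and 1.33 ± 0.19 (adjusted p = 0.00583).

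Of the 6 helicase subunit genes, 5 rose in both comparisons and Mcm3 after 5-FU 3 times, by unequal amounts. Mcm5 was at 244, 256 and 255 CPM after PBS once and 405, 469.8 and 375 CPM after 5-FU once, a 1.65-fold difference (adjusted p = 0.00346). After 3 administrations it was at 254, 231 and 215 CPM with PBS and 437, 438 and 523 CPM with 5-FU, a 1.97-fold difference (adjusted p = 0.00277). Mcm2 had a smaller fold. Its levels were 73.9, 71.1 and 78.9 CPM after PBS once, 95.1, 97.7 and 96.99 CPM after 5-FU once, 63.5, 66.5 and 66.6 CPM after PBS 3 times and 87.98, 90.3 and 91.4 CPM after 5-FU 3 times, with folds of 1.29 (adjusted p = 0.0125) and 1.35 (adjusted p = 0.00949). Mcm3 had the smallest difference of the 6, with log2 fold changes of 0.23 (adjusted p = 0.0627, not past the threshold) and 0.27 (adjusted p = 0.0432), while Mcm4, Mcm6 and Mcm7 rose in both comparisons by between 0.34 and 0.76 on the log2 scale. Cdt1, the partner of CDC6 in loading, and Gmnn, which encodes its inhibitor geminin, rose together in both comparisons, Cdt1 by 0.61 and 0.75 and Gmnn by 0.42 and 0.45 on the log2 scale. Of the origin recognition subunits, Orc6 rose in both (0.74 and 0.61), Orc1 passed after 5-FU once (0.80, adjusted p = 0.0494) and had a larger difference with an adjusted p of 0.0710 after 5-FU 3 times (1.07), and Orc2 passed in neither (0.25 and 0.52). In Orc2, 29.8% of the exonic bases lie opposite exons of Nif3l1, and the reads were not stated to be counted by strand.

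The start sites of these genes were searched for E2F words, because E2F factors are known to drive many of them. RefSeq promoter sequences of build GRCm38.p6, 250 bases before to 50 after the start, were found for 38 of the 49 genes. The words were the 8-letter sequences TTTCCCGC, TTTGGCGC, TTTCGCGC and TTTGCCGC on both strands, which can overlap each other by 4 letters. At least 1 word occurred at 16 of the 38 genes (42.1%), and at 8 genes a word lay before the start. Of the 10328 genes with a promoter that were tested after 5-FU once 4.76% held a word, as did 2.60% of all 27025 genes in the promoter table. The members were chosen as replication genes, many of them known E2F targets. Their share therefore describes that choice and not the response to 5-FU. Licensing genes held 7 of the 16 (of 10 with a promoter) and polymerase and primase genes 4 (of 7), and none of the 3 histone supply genes had one. The shorter word CCAAT, bound by the factor NF-Y, occurred at 63.2% of the 38 genes and 43.5% of the tested ones. A match is a run of letters and not a measured binding site. The stretches before the start of Cdc6, Mcm5, Mcm6 and Pola1 are shown because they hold the words in DNA outside annotated exons, 3 of them at licensing genes and 1 at a polymerase gene, and capitals mark the words.
Cdc6 (chr11:98907988-98908045, + strand): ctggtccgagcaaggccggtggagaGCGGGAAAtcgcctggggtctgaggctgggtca
Mcm5 (chr8:75109331-75109392, + strand): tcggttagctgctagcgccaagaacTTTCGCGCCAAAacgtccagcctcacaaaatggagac
Mcm6 (chr1:128359720-128359840, - strand): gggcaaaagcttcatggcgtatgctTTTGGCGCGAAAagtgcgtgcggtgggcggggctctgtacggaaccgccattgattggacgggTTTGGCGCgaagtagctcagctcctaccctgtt
Pola1 (chrX:93632261-93632318, - strand): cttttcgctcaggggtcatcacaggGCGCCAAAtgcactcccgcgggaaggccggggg
In Mcm5 and Mcm6 the longer run of capitals holds a word on each strand, and Mcm6 has a further word nearer to the start, whereas Cdc6 and Pola1 have 1 word each. Of these 4 genes, Cdc6, Mcm5 and Mcm6 rose in both day 6 comparisons and Pola1 rose after 5-FU 3 times. Gins3, Pold3, Pole2 and Rfc3 also hold a word and passed in neither comparison. Whether members that rose hold a word more often than members that did not was not tested. Fen1, Tipin and Ccne1, which also rose in both, had no word in the window (Fen1 and Ccne1) or no promoter in the table (Tipin).

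Of the helicase activation genes, Cdc45, Mcm10, Gins1 and Gins2 rose in both comparisons, and Gins3 and Gins4 passed the test in neither, although all 4 GINS proteins form 1 complex. Gins1 had the largest difference of the role after 5-FU once. Its levels were 12.3, 10.1 and 12.7 CPM after PBS once against 19.7, 21.1 and 24.5 CPM after 5-FU once, and 8.81, 8.57 and 9.28 CPM after PBS 3 times against 21.8, 23.2 and 26.8 CPM after 5-FU 3 times. The groups were well apart, with folds of 1.85 (adjusted p = 0.00538) and 2.65 (adjusted p = 0.00156). Gins4 had log2 fold changes of 0.12 (95% interval -0.11 to 0.35) and 0.16 (-0.03 to 0.35), and Gins3 of 0.29 and 0.39.

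Gins2 was at 11.7, 10.7 and 11.1 CPM after PBS once, 18.4, 18.2 and 18.98 CPM after 5-FU once, 9.65, 11.6 and 11.5 CPM after PBS 3 times and 16.6, 18.1 and 16.1 CPM after 5-FU 3 times, with log2 fold changes of 0.72 (adjusted p = 0.00330) and 0.61 (adjusted p = 0.0147). Of its exonic bases 67.3% lie opposite exons of Gse1, so that its reads may be shared. Cdc45, which completes the active helicase, was at 47.3, 70.1 and 90.4 CPM after PBS once and 117, 118 and 111 CPM after 5-FU once. The PBS libraries were spread widely and the 5-FU libraries closely, and the log2 fold change of 0.73 passed narrowly (adjusted p = 0.0452). Its adjusted p was 0.106 without 5-FU replicate 1, 0.108 without 5-FU replicate 2, 0.0891 without 5-FU replicate 3 and 0.106 without PBS replicate 2, at log2 fold changes of 0.71 to 0.75. After 3 administrations Cdc45 was at 56.98, 57.9 and 61.5 CPM with PBS and 137, 113 and 127 CPM with 5-FU, a 2.11-fold rise (adjusted p = 0.00215). Mcm10, which helps the helicase to start, rose by 0.73 and 1.37 on the log2 scale.

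The polymerase and primase genes had smaller median differences than the licensing genes, a contrast that was not tested. After 5-FU once 4 of 9 rose (Pola2, Prim1, Pold2 and Pole) and after 5-FU 3 times 7 of 9, with Pold3 and Pole2 not past the threshold in either, and the median log2 fold changes were 0.34 and 0.54. Pold2, an accessory subunit of polymerase delta, led the role after 5-FU once. It was at 122, 115 and 111 CPM after PBS once, 149.5, 175 and 149 CPM after 5-FU once, 108, 118 and 108 CPM after PBS 3 times and 168, 169 and 186 CPM after 5-FU 3 times. The groups did not overlap, and the folds were 1.36 (adjusted p = 0.0142) and 1.55 (adjusted p = 0.00473). Pola1, the catalytic subunit of polymerase alpha, had log2 fold changes of 0.11 (adjusted p = 0.418) and 0.54 (adjusted p = 0.0271), whereas its partner Pola2 rose in both, by 0.39 and 0.64. Pold1, the catalytic subunit of polymerase delta, had 0.21 and 0.31, and Pole, that of polymerase epsilon, rose by 0.36 and 0.67. The primase pair Prim1 and Prim2 had log2 fold changes of 0.34 and 0.31 after 5-FU once, where Prim1 alone passed, and 0.33 and 0.50 after 5-FU 3 times, where both did.

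The clamp gene Pcna, often used as a marker of proliferating cells, was among the genes that moved least. Its levels were 31.4, 30.1 and 34.5 CPM after PBS once and 38.9, 35.9 and 38.3 CPM after 5-FU once, and 30.2, 29.3 and 30.6 CPM after PBS 3 times and 33.6, 35.1 and 32.98 CPM after 5-FU 3 times. Although every 5-FU library lay above the PBS libraries in both comparisons, the log2 fold changes of 0.23 (95% interval 0.03 to 0.42, adjusted p = 0.0910) and 0.15 (-0.02 to 0.32, adjusted p = 0.196) did not pass the threshold. Pcna has 2 processed pseudogenes in the annotation, Pcna-ps1 and Pcna-ps2, which have no row in the count table, and how reads that match several places were counted is not stated.

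Of the loader genes, Rfc4 rose in both comparisons (0.37 and 0.40), Rfc1 and Rfc5 passed after 5-FU once (0.28 and 0.35), and Rfc2 and Rfc3 passed in neither, with log2 fold changes between -0.07 and 0.17. Dscc1, a subunit of the alternative loader that also serves sister chromatid cohesion, moved most. It was at 16.8, 15.6 and 17.7 CPM after PBS once and 28.2, 25.3 and 25.8 CPM after 5-FU once, a 1.57-fold rise (adjusted p = 0.00436). After 3 administrations it was at 16.2, 12.8 and 20.7 CPM with PBS and 32.2, 29.4 and 28.8 CPM with 5-FU, a 1.79-fold rise (adjusted p = 0.0179), and the adjusted p was 0.0515 without 5-FU replicate 1 and 0.0555 without PBS replicate 1. The PBS libraries of this comparison varied more than the 5-FU libraries.

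Fen1 and Lig1, the flap nuclease and the ligase that finish Okazaki fragments, rose in both comparisons, whereas of the single-strand binding RPA subunits Rpa1 passed after 5-FU 3 times (0.57, adjusted p = 0.00664) and Rpa2 and Rpa3 in neither. Fen1 was at 253, 226 and 219 CPM after PBS once, 381, 409 and 353 CPM after 5-FU once, 272, 235 and 178 CPM after PBS 3 times and 446, 429 and 437 CPM after 5-FU 3 times. Its folds were 1.63 (adjusted p = 0.00278) and 1.89 (adjusted p = 0.00827). Of its exonic bases 84.2% lie opposite exons of Gm10143 and Tmem258, so that its reads may be shared. Lig1 was at 266, 271 and 278 CPM after PBS once, 336, 416 and 372 CPM after 5-FU once, 266, 219.7 and 203 CPM after PBS 3 times and 446, 388 and 485 CPM after 5-FU 3 times. The 5-FU libraries were above the PBS libraries each time, with folds of 1.37 (adjusted p = 0.0121) and 1.89 (adjusted p = 0.00575).

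All 3 fork checkpoint genes rose in both comparisons, with median log2 fold changes of 0.86 and 1.11. Tipin, which binds TIMELESS at the fork, had the smallest p of the 49 genes in both comparisons. It was at 264, 219 and 247 CPM after PBS once and 455, 466 and 409 CPM after 5-FU once, and at 278, 266 and 270.2 CPM after PBS 3 times and 523, 496 and 533 CPM after 5-FU 3 times. The folds were 1.81 (adjusted p = 0.00191) and 1.88 (adjusted p = 0.00125). Clspn, which encodes claspin, the mediator between a stalled fork and CHK1, was far less abundant. It was at 7.27, 9.70 and 10.3 CPM after PBS once, 17.7, 19.9 and 20.2 CPM after 5-FU once, 8.49, 9.43 and 8.89 CPM after PBS 3 times and 21.2, 20.2 and 25.3 CPM after 5-FU 3 times, with folds of 2.11 (adjusted p = 0.00419) and 2.45 (adjusted p = 0.00228). Timeless rose by 0.47 and 1.11 on the log2 scale.

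Of the G1/S control genes, the cyclin E genes Ccne1 and Ccne2 rose most. Ccne1, which had the largest fold of the 49 genes in both comparisons, was at 3.89, 3.69 and 6.21 CPM after PBS once and 13.1, 13.9 and 13.8 CPM after 5-FU once, and at 4.41, 3.17 and 4.80 CPM after PBS 3 times and 12.1, 14.3 and 11.02 CPM after 5-FU 3 times. The rises were 2.94-fold (adjusted p = 0.00428) and 2.98-fold (adjusted p = 0.00464). Ccne2 rose by 0.98 and 1.35 on the log2 scale, and 17.4% of its exonic bases lie opposite exons of Ints8. The activator E2F genes E2f1 and E2f2 each passed in 1 comparison. E2f2 was at 11.7, 10.1 and 6.72 CPM after PBS once and 16.1, 17.7 and 19.2 CPM after 5-FU once (log2 fold change 0.89, adjusted p = 0.0207), but at 13.2, 18.7 and 9.03 CPM after PBS 3 times and 15.2, 18.8 and 25.8 CPM after 5-FU 3 times, where the groups overlapped (0.53, adjusted p = 0.259). The call after 5-FU once was lost without 5-FU replicate 2 (adjusted p = 0.0592), 5-FU replicate 3 (0.0607) or PBS replicate 2 (0.0528), and E2f1 passed after 5-FU 3 times (0.82) and not after 5-FU once (0.29).

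Of the histone supply genes, Slbp and Chaf1a rose in both comparisons. Slbp, whose protein binds the stem-loop of histone messenger RNAs, was at 332, 348 and 322 CPM after PBS once, 402, 494 and 427 CPM after 5-FU once, 347, 304 and 301 CPM after PBS 3 times and 526, 416 and 529 CPM after 5-FU 3 times. The log2 fold changes were 0.39 (adjusted p = 0.0200) and 0.61 (adjusted p = 0.0141), the former with adjusted p of 0.0559 without PBS replicate 1 and 0.0614 without PBS replicate 3. Chaf1a, a subunit of the chromatin assembly factor that places histones on new DNA, was at 42.8, 37.2 and 35.1 CPM after PBS once, 49.6, 55.8 and 49.6 CPM after 5-FU once, 29.8, 35.1 and 36.8 CPM after PBS 3 times and 53.99, 54.6 and 61.5 CPM after 5-FU 3 times. It rose by 0.42 (adjusted p = 0.0249) and 0.72 (adjusted p = 0.00694) on the log2 scale. Of its exonic bases 52.5% lie opposite exons of Ubxn6, so that its reads may be shared. Without 5-FU replicate 2, 5-FU replicate 3, PBS replicate 2 or PBS replicate 3 the adjusted p of Chaf1a after 5-FU once was between 0.0527 and 0.0772. Its partner Chaf1b passed in neither comparison (0.19 and 0.06).

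**Figure D2:**
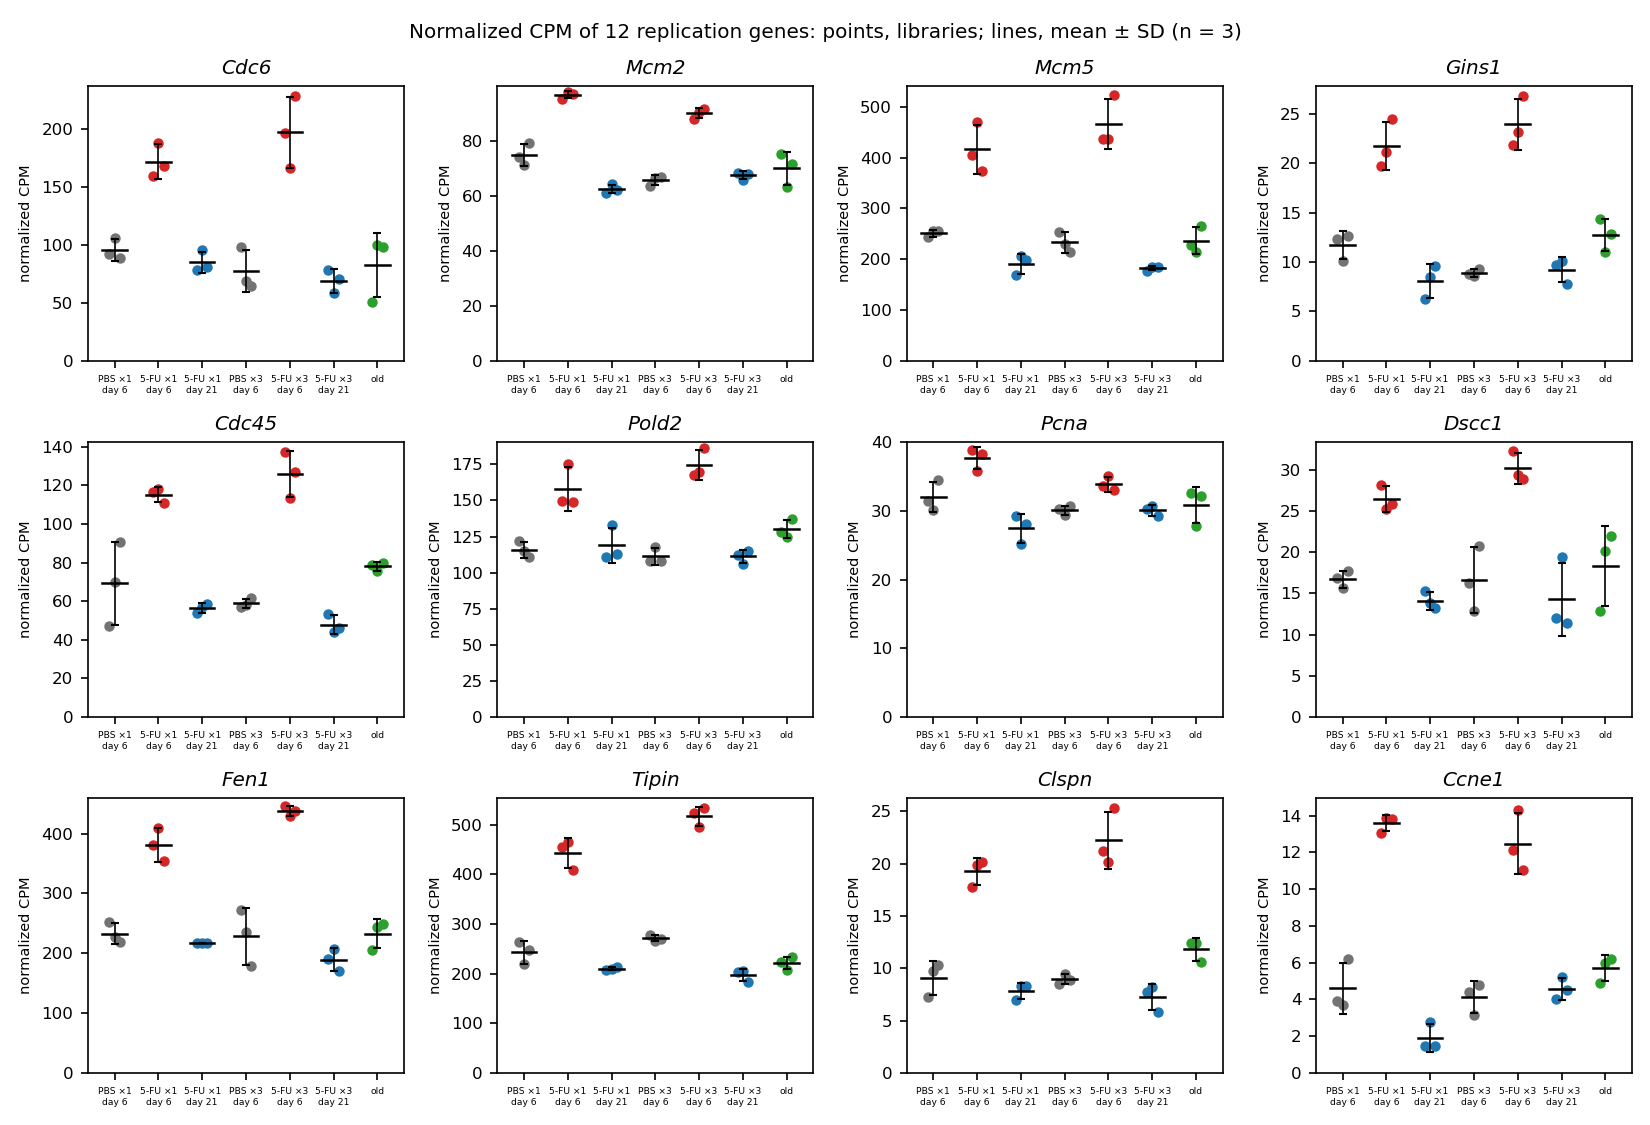
Normalized CPM of 12 replication genes in each of the 21 libraries, by group along the horizontal axis. Points are libraries and lines are the mean ± SD of 3. For 11 of the genes the day 6 5-FU groups passed the test against PBS in both comparisons, and Pcna, at 30.1 to 34.5 CPM after PBS once and 35.9 to 38.9 CPM after 5-FU once, passed in neither.

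Summed over their genes, licensing, polymerase and checkpoint levels stood in different proportions at day 6 after 5-FU and after PBS. The summed level of the 49 genes was 4533 to 4773 CPM after PBS once and 6250 to 6993 CPM at day 6 after 5-FU once, and 4104 to 4657 CPM after PBS 3 times and 6739 to 7842 CPM after 5-FU 3 times. Relative to the mean of the 6 PBS libraries, at day 6 after 5-FU once the sum was 1.41 to 1.57 for licensing, 1.27 to 1.36 for polymerase and primase, and 1.60 to 1.85 for the fork checkpoint. After 5-FU 3 times the same ratios were 1.51 to 1.82, 1.32 to 1.51 and 1.82 to 2.15, so that the checkpoint libraries stood above the polymerase libraries without overlap both times. This was not particular to the checkpoint. Helicase activation (1.62 to 1.76 and 1.75 to 1.98) and G1/S control (1.64 to 2.10 and 1.88 to 2.07) also stood above polymerase both times. So did single-strand binding and Okazaki fragment joining (1.41 to 1.63 and 1.61 to 1.81) and, narrowly, licensing. The ratio of summed checkpoint to summed polymerase and primase CPM within a library was 0.860 to 0.991 after PBS once, 1.18 to 1.29 at day 6 after 5-FU once and 0.755 to 0.904 at day 21, and 0.885 to 1.01 after PBS 3 times, 1.26 to 1.38 at day 6 after 5-FU 3 times and 0.733 to 0.776 at day 21. For licensing over polymerase and primase it was 3.65 to 3.74 after PBS once and 4.03 to 4.30 after 5-FU once, and 3.35 to 4.11 after PBS 3 times and 4.10 to 4.54 after 5-FU 3 times, where the ranges overlapped. Helicase activation over polymerase and primase was 0.292 to 0.388 after PBS once and 0.417 to 0.445 at day 6 after 5-FU once. With 3 administrations it was 0.273 to 0.338 after PBS and 0.417 to 0.488 after 5-FU. Sums weigh abundant genes most: Tipin is the most abundant of the checkpoint genes. These ratios are descriptions of 3 libraries a group, and no test was made on sums over the genes.

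**Figure D3:**
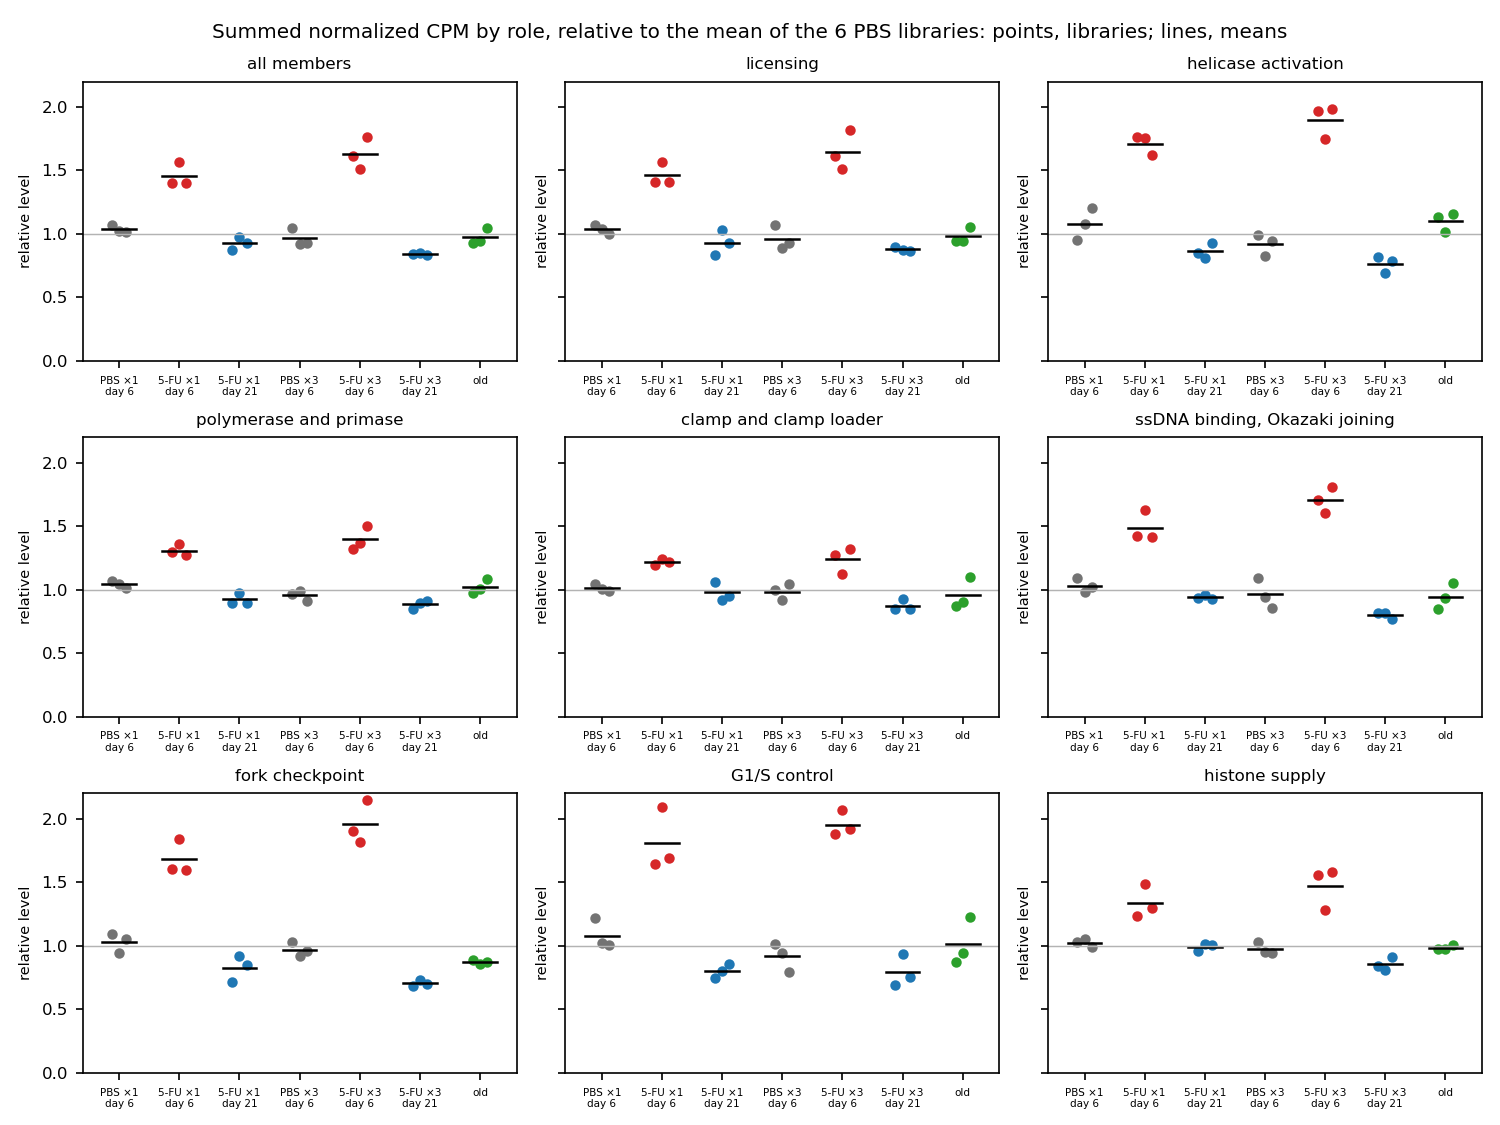
Summed normalized CPM of the genes of each role in each library, divided by the mean of the 6 PBS libraries (vertical axis, relative level, where the grey line is 1). The day 6 5-FU libraries (red) lie between 1.13 and 1.32 for clamp and clamp loader genes, the lowest of the roles, and between 1.60 and 2.15 for the fork checkpoint, and the day 21 libraries (blue) lie at or below 1.06 in every role.

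Levels of different genes were compared as CPM per kilobase of the longest annotated transcript. After PBS once the highest were Mcm7 (182 ± 11.5, SD, n = 3), Tipin (132 ± 12.3) and Mcm6 (128 ± 8.27), of which the last pair did not differ beyond their spread, and the lowest were Orc1 (2.14 ± 0.343), E2f2 (2.00 ± 0.534) and Clspn (1.81 ± 0.318), which did not differ beyond their spread either. Within the MCM2 to MCM7 ring, whose proteins are present in equal numbers, Mcm7 accounted for 40.8% ± 1.5 of the per-kilobase level, Mcm6 for 28.7% ± 1.1, Mcm5 for 16.7% ± 0.95, and Mcm2, Mcm3 and Mcm4 for 3.95 to 4.97% each after PBS once. At day 6 the share of Mcm5 was 19.8% ± 1.2 after 5-FU once and 19.4% ± 0.73 after 5-FU 3 times, against 14.0% ± 0.61 and 14.2% ± 0.37 at day 21. Mcm7 hosts the microRNA genes Mir25 and Mir93. Within GINS the balance between Gins1 and Gins4 moved: Gins1 held 33.3% ± 3.4 after PBS once and 43.7% ± 3.5 at day 6 after 5-FU once, and Gins4 44.5% ± 3.4 and 34.3% ± 2.1. After 3 administrations Gins1 went from 28.9% ± 1.2 with PBS to 46.9% ± 3.2 with 5-FU and Gins4 from 44.0% ± 1.5 to 30.1% ± 1.1. In replication factor C, Rfc1 held 54.1 to 60.6% in all 7 groups. Shares are means of 3 libraries, transcript lengths are those of the annotation and not of the isoforms in these cells, and a share that moves shows unequal change and not which gene changed.

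**Figure D4:**
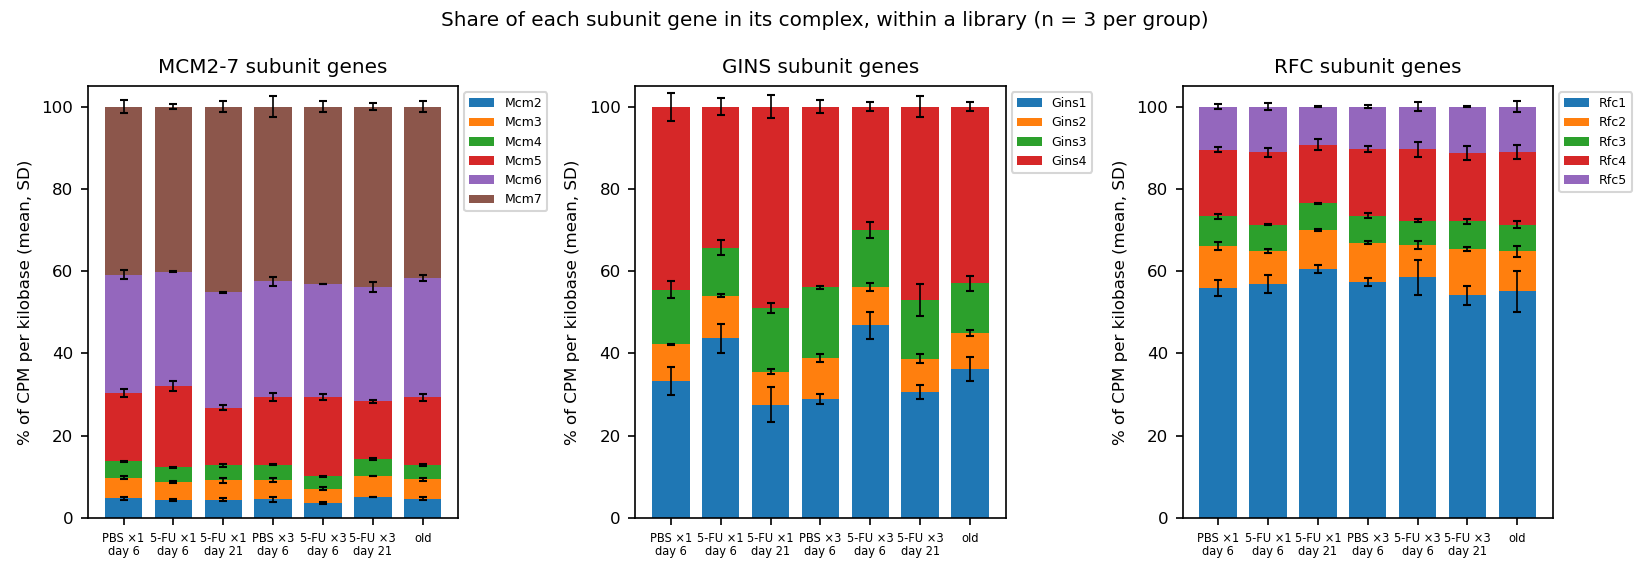
Share of each subunit gene in the summed CPM per kilobase of its complex, in percent, by group (bars are stacked means of 3 libraries and error bars are SD). In GINS (middle) the Gins1 share is 43.7% and 46.9% in the day 6 5-FU groups and between 27.5% and 36.2% in the other 5 groups, while MCM2-7 (left) and RFC (right) shares move less.

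The effect of 5-FU was compared between 3 administrations and 1 at day 6 over 12 libraries. Number of administrations, time since the first of them and a suffix of the count columns described below go together here. They cannot be told apart in this test or between the PBS groups. Of the 49 genes 41 had a larger log2 fold change after 3 administrations, with a median interaction of 0.17, but 0 members passed (edgeR), where 0.34% of all genes tested had a larger and 0.31% a smaller change after 3. At an unadjusted edgeR p under 0.05 there were 8 members, and 1954 of all 13227 genes tested. DESeq2 called 2 members, Timeless and E2f1, both larger, where it called 372 of all genes larger and 321 smaller. No more is read from these counts. E2f1 had the smallest adjusted p, with an interaction of 0.55 ± 0.14 (SE, adjusted p = 0.0884), and Timeless had 0.65 ± 0.20 (adjusted p = 0.147). The interactions were 0.53 for Gins1, 0.50 for Cdc6 and 0.48 for Lig1, none past the threshold, and -0.35 (95% interval -1.20 to 0.51) for E2f2. PBS given 3 times and PBS given once differed in 0 members (edgeR), where 0.00781% of genes tested were higher and 0.00781% lower. There were 41 members lower and 8 higher after PBS 3 times, with a median of -0.12. At an unadjusted edgeR p under 0.05 there were 6 members, and 1633 of all 12806 genes tested. DESeq2 called 1 member, Timeless, where it called 295 of all genes higher and 236 lower.

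From day 6 to day 21 after 5-FU most replication genes fell. After 5-FU once 40 of 49 members were lower at day 21 and 0 higher (edgeR; DESeq2 called 40), where 13.7% of all genes tested were lower and 12.3% higher, and the median log2 fold change was -0.59. After 5-FU 3 times 42 were lower and 0 higher (DESeq2 43), against 10.8% lower and 8.68% higher of all genes tested, with a median of -0.82. Under every alternative 31 of the 40 and 31 of the 42 calls passed, and the lost ones were Mcm7, Pola1, Prim2, Pold2, Pole, Timeless, E2f1, Chaf1b and Slbp after 5-FU once (highest adjusted p 0.0526 to 0.131) and Orc1, Gmnn, Mcm3, Gins3, Prim1, Pold1, Pold3, Pole, Pole2, Rfc5 and Rpa2 after 5-FU 3 times (0.0521 to 0.157). These comparisons share their day 6 libraries with the comparisons above, so that the fall and the rise are not independent. The count columns of PBS once and of day 6 after 5-FU once carry a suffix of unstated meaning that all other columns lack. The comparisons of day 21 after 5-FU once with either group, and of PBS 3 times or old with PBS once, therefore set columns with it against columns without it. So does the interaction test, between 1 administration and 3. Both day 6 comparisons of 5-FU with PBS, and all comparisons within the groups treated 3 times, do not set such columns against each other. The largest fall was that of Ccne1 after 5-FU once (-2.81 on the log2 scale, adjusted p = 0.00148), from 13.1, 13.9 and 13.8 CPM at day 6 to 1.48, 2.78 and 1.46 CPM at day 21. After 5-FU 3 times Ccne1 stood at 4.04, 5.23 and 4.49 CPM at day 21, a log2 fold change of -1.44 from day 6 (adjusted p = 0.00279).

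Tipin, Cdc45 and E2f2 had the smallest p values after 5-FU once, and Tipin, Mcm5 and Lig1 after 5-FU 3 times. Tipin was at 207, 209 and 213 CPM at day 21 after 5-FU once and 203, 205 and 183 CPM after 5-FU 3 times, with folds below day 6 of 2.10 (adjusted p = 0.000679) and 2.61 (adjusted p = 0.000546). Cdc45 was at 53.9, 57.2 and 58.7 CPM and 53.3, 43.8 and 46.2 CPM, and E2f2 at 5.66, 5.71 and 4.81 CPM and 4.19, 4.35 and 8.54 CPM, so that E2f2 fell by 3.26-fold after 5-FU once (adjusted p = 0.000896) and 3.50-fold after 5-FU 3 times (adjusted p = 0.00984). Mcm5 was at 169, 206 and 199.5 CPM and 178, 185 and 184 CPM, and Lig1 at 228, 249 and 224 CPM and 169, 167 and 166 CPM. The 3 libraries of day 21 after 5-FU 3 times were close together for both, and the falls from day 6 in that arm were 2.55-fold for Mcm5 and 2.62-fold for Lig1 (adjusted p = 0.000546 for each).

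The other genes followed at day 21. Cdc6 was at 78.6, 95.2 and 80.8 CPM after 5-FU once and 78.2, 58.3 and 70.1 CPM after 5-FU 3 times, Mcm2 at 61.1, 64.1 and 62.1 CPM and 68.4, 65.8 and 67.96 CPM, and Gins1 at 6.25, 8.47 and 9.57 CPM and 9.72, 10.1 and 7.76 CPM. Gins2 was at 8.55, 8.29 and 8.29 CPM and 10.1, 7.89 and 7.95 CPM, Dscc1 at 15.3, 13.8 and 13.2 CPM and 11.997, 19.4 and 11.4 CPM, and Clspn at 6.99, 8.35 and 8.26 CPM and 7.74, 8.22 and 5.83 CPM. All 6 of these fell from day 6 in both arms. Fen1 at 218, 218 and 217 CPM and 191, 208 and 169.5 CPM and Chaf1a at 24.5, 33.5 and 32.2 CPM and 27.5, 25.3 and 33.7 CPM fell in both as well. Pold2 was at 111, 133 and 113 CPM and 112, 106 and 115 CPM and Slbp at 326, 340.1 and 335 CPM and 275, 264 and 295 CPM. Their falls after 5-FU once did not withstand the loss of a library, with adjusted p up to 0.111 for Pold2 (without any of the day 6 replicates or day 21 replicates 1 and 3) and up to 0.0526 for Slbp (without day 6 replicates 2 and 3 or day 21 replicates 1 and 3). Pcna, at 29.2, 25.1 and 28.1 CPM and 30.2, 30.7 and 29.2 CPM, fell after 5-FU once (-0.45, adjusted p = 0.0133) but its change after 5-FU 3 times did not pass (-0.17, adjusted p = 0.182). Members that passed in neither arm were Orc2, Gins4, Rfc2, Rfc3 and Rpa3.

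Against PBS, day 21 levels leaned below the controls without passing the test for any gene. After 5-FU once 45 of the 49 genes had a negative difference from PBS once, with a median log2 fold change of -0.23 (all genes -0.01). The edgeR count was 0 higher and 0 lower, where 0.0712% of all genes tested were higher and 0.15% lower. An unadjusted edgeR p under 0.05 was found for 21 members and for 1685 of all 12647 genes tested. With PBS 3 times as the control for the same day 21 libraries, 39 differences were negative, the median was -0.07, 0 members were called and 7 had an unadjusted p under 0.05. Against PBS once DESeq2 called 8, all lower (Gmnn, Mcm2, Mcm4, Mcm5, Pold1, Pold3, Lig1 and Ccne2), where it called 381 of all genes higher and 345 lower. After 5-FU 3 times 41 were negative against PBS 3 times, with a median of -0.16 and 0 members called by edgeR, against 0.0396% higher and 0.00792% lower of all genes tested. There, 10 members had an unadjusted edgeR p under 0.05, as had 1725 of all 12632 genes tested. DESeq2 called 5 members, all lower (Mcm5, Pola2, Lig1, Timeless and Tipin), where it called 212 of all genes higher and 361 lower. G1/S control genes had the lowest median after 5-FU once (-0.68) and fork checkpoint genes after 5-FU 3 times (-0.46). Tipin came nearest after 5-FU 3 times, at -0.47 ± 0.07 (SE, adjusted p = 0.0862), with its 3 day 21 libraries all below the PBS libraries, and Ccne1 after 5-FU once had -1.26 (95% interval -2.21 to -0.32, adjusted p = 0.249). These comparisons use the PBS libraries of the day 6 comparisons, and day and treatment cannot be told apart in them, since PBS was sampled at day 6 alone.

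The comparison of old HSCs with PBS depended on which PBS group was used for the side on which most members lay. Against PBS 3 times 28 members had a positive and 21 a negative difference, and 0 members passed (edgeR; 5 at an unadjusted p under 0.05), where 0.553% of all genes tested were higher and 0.444% lower, and the median log2 fold change was 0.02. Against PBS once 9 differences were positive and 40 negative, with a median of -0.09 and 0 members called by edgeR (3 at an unadjusted p under 0.05). Against PBS 3 times DESeq2 called 2, Cdc45 as higher and Tipin as lower, where it called 321 of all genes higher and 236 lower. Beside the 5 members at an unadjusted edgeR p under 0.05 there were 1434 of all 12847 genes tested. Cdc45 was at 78.7, 75.5 and 79.9 CPM in old HSCs (log2 fold change 0.40, 95% interval 0.20 to 0.60, adjusted p = 0.104), and Tipin at 223, 208 and 233 CPM (-0.30, -0.47 to -0.13, adjusted p = 0.137). Gins1 was at 14.3, 11.1 and 12.9 CPM (0.51, adjusted p = 0.204). Age, injections and the time of sampling all differ between these groups and cannot be told apart. Among the other genes, Cdc6 was at 50.8, 99.6 and 97.8 CPM, Mcm2 at 75.1, 63.3 and 71.3 CPM, Mcm5 at 227, 215 and 266 CPM and Gins2 at 11.3, 8.94 and 13.05 CPM. Pold2 was at 128, 125 and 137 CPM, Pcna at 32.6, 27.9 and 32.2 CPM, Dscc1 at 12.8, 20.1 and 22.004 CPM and Fen1 at 205, 244 and 249 CPM. Cdc6, E2f2 and Dscc1 each had 1 old library, replicate 1, below the other old libraries. Lig1 was at 199.9, 204 and 265 CPM, Clspn at 12.4, 12.4 and 10.6 CPM, Ccne1 at 4.92, 5.98 and 6.21 CPM and E2f2 at 4.46, 12.3 and 9.10 CPM. Slbp was at 319, 329 and 329 CPM and Chaf1a at 34.3, 30.5 and 35.5 CPM.

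Of 35 other replication genes 10 rose and 0 fell after 5-FU once, and 19 rose and 0 fell after 5-FU 3 times. Of all genes tested 11.5% rose and 10.6% fell after 5-FU once, and 9.84% rose and 8.3% fell after 5-FU 3 times. Dna2, a nuclease of Okazaki fragments, was at 0.62 and Uhrf1, which keeps DNA methylation through replication, at 0.77 after 5-FU once (log2 fold changes with the smallest p). After 5-FU 3 times the smallest p belonged to Uhrf1 (1.35) and Dbf4 (1.11), the activating partner of the kinase CDC7. Of 11 replication checkpoint kinase and clamp genes 2 rose and 1 fell after 5-FU once and 3 rose and 1 fell after 5-FU 3 times, beside 11.5% higher and 10.6% lower, and 9.84% higher and 8.3% lower, of all genes tested, and no more is read from these counts. Chek1, the kinase that claspin brings to activation, rose by 0.78 and 0.70, Cdc25a had 0.51 after 5-FU once, Atr, the upstream kinase, had 0.61 after 5-FU 3 times, and Rad9b fell by 0.70 and 1.13. Of 18 further G1/S regulators, 1 of them Cdc25a again, 8 rose and 2 fell after 5-FU once and 9 rose and 2 fell after 5-FU 3 times. They stand beside the same shares of all genes tested, and no more is read from the counts that fell. Skp2, which targets the inhibitor p27 for degradation, rose by 1.02 and 0.93. Tfdp1, the partner of E2F proteins, rose by 0.90 after 5-FU 3 times, and Tfdp2 fell by 0.50 after 5-FU once.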

How the data were processed

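HSC RNA was extracted with RNeasy Micro, amplified with SMART-Seq v4, made into Nextera XT libraries and read single-end on a NextSeq 500. The authors aligned reads with TopHat 2.0.13 to mm10 and used Cufflinks 2.2.1 with Cuffdiff. The deposited table holds whole-number read counts per gene symbol. How these were counted, by strand or at repeated sequence, is not given in the sources used here.

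Each pair of groups was compared with edgeR 4.0.16 in R 4.3.3 (filterByExpr, TMM factors, quasi-likelihood F test, Benjamini-Hochberg adjustment over all genes tested, threshold 0.05), with the number of administrations tested as an interaction over 12 libraries. CPM were TMM-normalized over 21 libraries. Intervals are 95% t intervals of the fit and cover the spread between 3 libraries. Alternatives were RLE factors, library size alone, DESeq2 1.42.0, looser and stricter filters, a replicate block, 1 fit over 21 libraries, and each library left out. On counts simulated for 5-FU once against PBS once at day 6 (12759 genes), 200 genes were changed and spreads were those estimated by edgeR. There edgeR recovered 75% of genes changed to 0.5 or 2 of their level and 88% of those changed to 0.25 or 4. Of its calls 4.12% were false. Smaller changes were not simulated, and far more genes were called in the data, so that these shares need not hold there.

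The members, roles and lists were chosen with earlier results of these data known. Values in every library are given for the member with the smallest p and the one with the largest fold of each role after 5-FU once at day 6, for Pcna, Mcm2 and Cdc6, and for up to 3 members with the smallest p past the threshold in each other comparison; of the other lists, the 2 genes with the smallest p are named. Total counts of 22184885 to 38649033 per library set the counting error. No member was left out.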

Additional observations from a re-analysis of the deposited data

How the results depend on the processing

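At day 6 after 5-FU 0 members were called lower under any alternative run. Counts of members called were 22 to 26 and 23 to 27 with 1 library left out, and 36 and 41 with DESeq2. Against PBS at day 21, where edgeR called 0, DESeq2 called 8 after 5-FU once and 5 after 5-FU 3 times, and the fit over 21 libraries called 3 and 1. Over all genes DESeq2 called 381 higher and 345 lower after 5-FU once, and 212 and 361 after 5-FU 3 times. The fit over 21 libraries called 126 higher and 131 lower, and 67 and 118. DESeq2 called 2 for old against PBS 3 times, 1 for PBS 3 times against PBS once and 2 for the interaction. Over all genes its counts there were 321 higher and 236 lower, 295 and 236, and 372 and 321. In simulated counts of 5-FU once against PBS once at day 6, 20.6% of DESeq2 calls were false. That simulation changed 200 of 12759 genes and took their spread from edgeR, whereas edgeR called 2827 genes in the data. Its false share therefore does not carry over to the DESeq2 calls given here. The cause of the differences in counts between edgeR, DESeq2 and the fit over 21 libraries was not tested. Library size alone put the median of all genes at -0.11 after 5-FU 3 times at day 6 (-0.01 with TMM) and at 0.12 from day 6 to day 21 (0.01), and 29 and 37 members were called. It called 1127 genes of all tested higher and 1623 lower after 5-FU once at day 6 (1470 and 1357 with TMM), and 807 higher and 1462 lower after 5-FU 3 times (1253 and 1057), and 1701 higher and 977 lower from day 6 to day 21 after 5-FU 3 times (1089 and 1361). The splits at day 21 against PBS were 17 higher and 66 lower after 5-FU once (9 and 19) and 6 and 9 after 5-FU 3 times (5 and 1), and that of the interaction was 39 and 72 (45 and 41). Of 576 alternatives to 64 single-gene results, counting of the libraries left out only the lowest and highest value of each result, 569 stayed on their side of the threshold, 7 lost significance and 0 changed direction, and Cdc45 after 5-FU once (adjusted p = 0.0545 with library size alone) and E2f2 (0.0740 in the fit over 21 libraries) were among the 7. Further losses on leaving out a library, in Cdc45, E2f2, Slbp, Chaf1a, Dscc1 and Pold2, are not in this count and stand beside those genes.

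Same-numbered replicates did not deviate together (correlations of -0.05 to 0.04), so that no shared effect of the replicate number was seen. This does not show whether same-numbered samples came from the same experiment. With a replicate block 24 members were called after 5-FU once and 27 after 5-FU 3 times at day 6, and 39 and 39 from day 6 to day 21.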
